A study of Mus musculus with 3 samples.

Results

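The microRNAs (miRNAs) of the Dlk1-Dio3 imprinted domain were followed across 3 samples of mouse CD4+CD8+ (double-positive) T cells on miRCURY LNA arrays, whose capture probes carry human miRNA names. Probes were taken as members by name, from a list of 41 miRNA numbers that lie in the domain. Of these numbers 29 had probes, which gave 38 member probes among 451 human-named perfect-match miRNA probes and 1491 probe identifiers in all. The 12 numbers with no probe of that name were miR-300, miR-341, miR-434, miR-541, miR-543, miR-665, miR-666, miR-667, miR-668, miR-673, miR-679 and miR-758. The rule for members used names and no measured value, but it was set with earlier results of these data known.

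The groups were ICN1 tumor cells, non-malignant cells that express ICN1, and normal control thymocytes, with 1 array each. ICN1 is the intracellular, active form of the receptor NOTCH1. All cells were labelled CD4+CD8+ and came from the Balb/c background. The labels give no age, time point, vector or promoter for any group, and do not say how many animals an RNA came from. Each array held 1 sample, labelled with the dye Hy3, beside a common mixture of the 3 RNAs in equal amounts, labelled with Hy5 and called the pool below, so that the Hy5 signal measured the same RNA 3 times. With 1 array a group there was no replicate check and no test between groups. The number of arrays limits the precision, and ± below is the SD over replicate spots, or the standard error of a difference over those spots, which covers spot error alone.

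The Dlk1-Dio3 domain is imprinted: its protein-coding genes Dlk1, Rtl1 and Dio3 are expressed from the paternal chromosome, and its long non-coding RNAs and miRNAs from the maternal chromosome. The miRNAs are thought to be cut from a long transcript that starts at Meg3 (also called Gtl2). One group of them, with miR-431, miR-433 and miR-127, lies antisense to Rtl1, and a longer group from miR-379 to miR-410 is carried by the transcript Mirg. They are best known from embryo, placenta and brain, and their expression is low in most other adult tissues.

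All 38 member names matched a mouse miRNA gene of RefSeq, 30 genes in all. These lie on the plus strand at chr12:109580233-109743795 (GRCm38.p6), a span of 163563 bases between Dlk1 (chr12:109452485-109463336) and Dio3 (chr12:110279230-110281097). The probe sequences were not used here, so the match rests on the names, and a probe made for the human miRNA can differ from the mouse one. The mature mouse sequences below, from RefSeq, are those of 12 of the 13 members detected on all 3 arrays, in the order of their genes. Detected means that at least 50% of a probe's usable spots had a Hy3 signal above the local background median plus 2 background SDs. The seed, bases 2 to 8, which does most of the pairing with target mRNAs, is in capitals.
mmu-miR-493-5p: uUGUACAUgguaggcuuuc
mmu-miR-370-3p: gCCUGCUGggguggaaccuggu
mmu-miR-379-5p: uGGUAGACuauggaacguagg
mmu-miR-494-3p: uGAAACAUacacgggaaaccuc
mmu-miR-654-5p: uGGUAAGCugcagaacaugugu
mmu-miR-381-3p: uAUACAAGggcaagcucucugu
mmu-miR-382-5p: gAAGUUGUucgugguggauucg
mmu-miR-134-5p: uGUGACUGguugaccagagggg
mmu-miR-485-3p: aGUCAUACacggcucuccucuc
mmu-miR-154-5p: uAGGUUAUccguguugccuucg
mmu-miR-377-3p: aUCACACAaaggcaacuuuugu
mmu-miR-369-3p: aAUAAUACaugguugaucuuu

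Among the 36 members with a mature sequence there were 36 different seeds, so no seed was shared by any pair. 2 pairs came close, with bases 3 to 8 in common. These are miR-379 with miR-411, and miR-485-3p with miR-154*, and in each pair the first was detected and the second was not. The second of each is printed for this reason, and the choice was made after their values were seen.
mmu-miR-411-5p: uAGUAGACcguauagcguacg
mmu-miR-154-3p: aAUCAUACacgguugaccuauu

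Most of the cluster was not detected. The Hy3 signal passed for 15 of 38 members on the ICN1 tumor array (39.5%), for 14 on the non-malignant ICN1 array (36.8%) and for 13 on the control array (34.2%). Over all 276 probes that name a mouse miRNA, the members included, 60.9% passed on the tumor array, 56.2% on the non-malignant ICN1 array and 60.1% on the control array. In the Hy5 pool, 6 members passed on the tumor array, 8 on the non-malignant ICN1 array and 7 on the control array. The background for the pool was 35.9% of the 276 probes on the tumor array, 35.5% on the non-malignant ICN1 array and 37.7% on the control array. The members that passed in the pool passed in Hy3 too, and the share of the 276 probes that passed in both dyes was 35.1% on the tumor array, 35.5% on the non-malignant ICN1 array and 37.7% on the control array. In either dye the members' shares therefore lay below those of the mouse miRNA probes as a whole on each of the 3 arrays. The share of probes that passed is not a measure of how much of these miRNAs was present. In bulk RNA, fewer cells with a miRNA and less of it per cell also cannot be told apart.

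Signal did not need a mouse miRNA of that name. The primate-only miRNA cluster of human chromosome 19 has no mouse counterpart. Of its 42 probes 25 passed in Hy3 on the tumor array (59.5%), 22 on the non-malignant ICN1 array (52.4%) and 23 on the control array (54.8%). In Hy5, 12 of them passed on the tumor array (28.6%), 14 on the non-malignant ICN1 array (33.3%) and 13 on the control array (31.0%). These shares lay above those of the members in each dye on every array. The brightest probe of this cluster, miR-498, had a Hy3 signal over background of 3306 intensity units on the tumor array, 3450 on the non-malignant ICN1 array and 4399 on the control array. Of 8 negative-control probes, 4 passed in Hy3 on the tumor array, 3 on the non-malignant ICN1 array and 3 on the control array, while 0 passed in Hy5. The brightest negative control had a Hy3 signal of 34.7 on the tumor array, 31.6 on the non-malignant ICN1 array and 39.96 on the control array. Above that level lay 12 members on each array. Of all 276 mouse miRNA probes, 44.9% lay above it on the tumor array, 48.2% on the non-malignant ICN1 array and 48.2% on the control array, and of the 42 primate-only probes 18 did on the tumor array, 19 on the non-malignant ICN1 array and 18 on the control array. Detection of a member here is therefore no proof that its mouse miRNA was present, and the part of such signal in the members' values was not tested.

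The members fell into 3 sets by the dyes in which they were seen. In the first set, 6 members passed in both dyes on all 3 arrays: miR-370, miR-381, miR-382, miR-487b, miR-494 and miR-654. A further 2, miR-134 and miR-485-3p, passed in Hy3 on all 3 arrays and in the pool on some. In the second set, 7 members passed in Hy3 and never in the pool, although the pool holds the same 3 RNAs: miR-154, miR-369-3p, miR-377, miR-379, miR-433, miR-493-5p and miR-495. In the third set, 23 members passed in neither dye on any array.

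The probe for miR-494, a miRNA of the Mirg group, was far above background. Its Hy3 signal was 2568 ± 52.8 on the tumor array, 3106 ± 144 on the non-malignant ICN1 array and 3458 ± 153 on the control array. By brightness alone it stood at place 5 of the 276 mouse miRNA probes on the tumor array, 13 on the non-malignant ICN1 array and 14 on the control array. The pool gave 5939 on the tumor array, 5502 on the non-malignant ICN1 array and 6828 on the control array, so both dyes were highest on the control array.

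The probes for miR-370, miR-381 and miR-382 showed one shape. miR-370, the 1 gene with a member probe between the Rtl1 group and the Mirg group, had a Hy3 signal of 232 ± 17.3 on the tumor array, 498.4 ± 50.9 on the non-malignant ICN1 array and 467 ± 32.5 on the control array. miR-381, a Mirg miRNA that in rat neurons belongs to an activity-induced set, had 129 ± 38.6 on the tumor array, 482 ± 92.7 on the non-malignant ICN1 array and 449 ± 113 on the control array. miR-382, also from Mirg, had 218 ± 13.996 on the tumor array, 459 ± 50.7 on the non-malignant ICN1 array and 486.5 ± 53.0 on the control array. In each case the tumor array was the low one and the other two lay close together.

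The pool, which was the same RNA on every array, was low on the tumor array for the same 3 probes. Its Hy5 signal for miR-370 was 227 on the tumor array, 502 on the non-malignant ICN1 array and 459 on the control array. For miR-381 it was 141 on the tumor array, 548 on the non-malignant ICN1 array and 525 on the control array. For miR-382 it was 243 on the tumor array, 504 on the non-malignant ICN1 array and 568 on the control array. The low signal on the tumor array was thus present in RNA that did not differ between the arrays. In the ratio of sample to pool, as normalized here, the tumor array was not the low one for any of the 3 probes.

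miR-134, known in rat hippocampal neurons as a regulator of dendritic spine size, was of the same kind. Its Hy3 signal was 38.7 ± 12.7 on the tumor array, 174 ± 84.7 on the non-malignant ICN1 array and 141 ± 36.9 on the control array. Its pool signal was 28.6 on the tumor array, where it did not pass, 181 on the non-malignant ICN1 array and 170 on the control array. miR-485-3p, from a hairpin of the Mirg group, had a Hy3 signal of 42.1 ± 1.06 on the tumor array, 130 ± 4.17 on the non-malignant ICN1 array and 60.7 ± 0.98 on the control array. Its pool signal was 11.3 on the tumor array, 129 on the non-malignant ICN1 array and 11.97 on the control array, so here the non-malignant ICN1 array was high in both dyes. Only 2 of its spots were usable on the non-malignant ICN1 array and 2 on the control array, against 4 on the tumor array. The spots left out for their quality flag read 77.5 and 78.8 in Hy3 on the non-malignant ICN1 array and 95.2 and 73.97 on the control array. In the pool they read 71.3 and 76.9 on the non-malignant ICN1 array and 81.4 and 47.9 on the control array, so with them the non-malignant ICN1 and control spots overlap in both dyes.

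miR-654 was the member whose sample and pool signals parted. Its Hy3 signal was 75.6 ± 33.9 on the tumor array, 276 ± 95.3 on the non-malignant ICN1 array and 326 ± 39.2 on the control array. Spot by spot it was 68.1, 59.7, 125 and 49.6 on the tumor array, 349, 365, 213 and 176 on the non-malignant ICN1 array, and 368.8, 347.3, 302.2 and 284.0 on the control array. The tumor spots did not overlap those of either other array, and the non-malignant ICN1 spots overlapped the control spots. Its pool signal was 195 ± 40.1 on the tumor array, 320 ± 115 on the non-malignant ICN1 array and 206 ± 44.8 on the control array, with overlapping spots. miR-487b, the sixth of these members, lay near the brightest negative control in Hy3 and moved little, at 42.7 ± 3.15 on the tumor array, 36.2 ± 2.08 on the non-malignant ICN1 array and 42.3 ± 1.75 on the control array. Its pool signal was 37.8 on the tumor array, 31.3 on the non-malignant ICN1 array and 39.9 on the control array. The brightest negative control in Hy5 was lower, at 3.69 on the tumor array, 3.76 on the non-malignant ICN1 array and 6.81 on the control array.

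The 7 members seen in Hy3 alone were dim and nearly level across the arrays. miR-369-3p, reported in human cells to act on the AU-rich element of TNF mRNA, had a Hy3 signal of 84.1 on the tumor array, 85.4 on the non-malignant ICN1 array and 78.7 on the control array. miR-493-5p had 69.3 on the tumor array, 63.3 on the non-malignant ICN1 array and 68.4 on the control array. miR-154 had 52.4 on the tumor array, 49.5 on the non-malignant ICN1 array and 54.5 on the control array. These 3 showed no group that stood apart.

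miR-379, the first gene of the Mirg group, had a Hy3 signal of 52.4 on the tumor array, 44.3 on the non-malignant ICN1 array and 47.2 on the control array. miR-377 had 29.7 on the tumor array, 25.5 on the non-malignant ICN1 array and 26.8 on the control array, below the brightest negative control on each. miR-433, antisense to Rtl1, had 23.7 on the tumor array, 22.2 on the non-malignant ICN1 array and 15.9 on the control array, where it did not pass. miR-495 had 19.9 on the tumor array, where alone it passed, 13.4 on the non-malignant ICN1 array and 16.8 on the control array. The calls for miR-433 and miR-495 thus rest on a few intensity units. The Hy5 signals of these 7 members lay between -15.6 and -5.77 on the tumor array, -25.6 and -5.05 on the non-malignant ICN1 array, and -19.0 and 0.42 on the control array.

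The 23 members seen on no array included miR-127, the miRNA antisense to Rtl1 that cuts its transcript in mouse placenta, and miR-431 of the same group. The others were miR-154*, miR-299-3p, miR-299-5p, miR-323, miR-329, miR-337, miR-369-5p, miR-376a, miR-376a*, miR-376b, miR-380-3p, miR-380-5p, miR-409-3p, miR-409-5p, miR-410, miR-411, miR-485-5p, miR-493-3p, miR-496, miR-539 and miR-544. The miR-376 RNAs among them are known targets of A-to-I editing in mouse and human brain, which can change their sequence. The Hy3 signals of the 23 lay between -5.44 and 17.1 on the tumor array, -14.7 and 24.0 on the non-malignant ICN1 array, and -9.60 and 19.8 on the control array. These ranges overlap those of the negative controls. A few spots made some of the upper values. miR-410 had 1 spot at 59.9 on the tumor array beside 3 below 0. miR-409-5p had a spot at 51.7 on the non-malignant ICN1 array beside others at 15.1 and 5.04, and a spot left out for its quality flag read 48.2. With such spots kept, 15 members and not 14 were detected on the non-malignant ICN1 array.

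The order of the genes, looked at after the calls were known, gave runs of both kinds. In the neighbouring genes of miR-382, miR-134 and miR-485, the probes for miR-382, miR-134 and miR-485-3p were detected on all 3 arrays. The probe for the other arm, miR-485-5p, was detected on none. Between miR-379 and miR-494, which were both detected, 6258 bases hold 5 genes with 7 member probes, and 0 of these passed on any array. Both arms were probed for 8 hairpins. In 4 of them (miR-154, miR-369, miR-485 and miR-493) 1 arm passed on all 3 arrays and the other on none, and in the other 4 (miR-299, miR-376a, miR-380 and miR-409) neither arm passed. Since both arms are cut from 1 hairpin but are kept at different levels, this is a description of the probes. The GC content of the mature sequence was a median of 50% (45.5 to 68.2) over 7 members seen in both dyes on some or all arrays, 42.1% (23.8 to 54.5) over the 7 seen in Hy3 alone and 44.2% (36.4 to 59.1) over 22 of the 23 never seen.

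Mismatch probes, which carry a base change against the named miRNA, were present for 3 members. The miR-381 mismatch probe kept 54.3% of the perfect-match Hy3 signal on the tumor array, 57.6% on the non-malignant ICN1 array and 45.1% on the control array. Its Hy3 signal was 70.2 ± 52.7 on the tumor array (2 usable spots), 277 ± 52.2 on the non-malignant ICN1 array (3 usable spots) and 202 ± 37.7 on the control array. The tumor array was the low one, as for the perfect match, but its value and share rest on 2 spots that differed widely. The miR-380-3p mismatch probe passed on all 3 arrays, at 34.8 on the tumor array, 29.8 on the non-malignant ICN1 array and 32.6 on the control array, while its perfect match did not, at -0.95 on the tumor array, -8.22 on the non-malignant ICN1 array and -5.71 on the control array. The brightest negative control lay at 34.7 on the tumor array, 31.6 on the non-malignant ICN1 array and 39.96 on the control array. The miR-380-3p mismatch probe thus lay near or below it, and did not pass in the pool. Neither miR-376a mismatch probe passed.

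The first comparison asked how ICN1 tumor cells differed from control thymocytes. Differences are given as log2 of the ratio of sample to pool on one array minus that on the other. miR-654 was 2.46-fold lower in tumor cells, with a ratio of -0.86 on the tumor array against 0.44 on the control array, a difference of -1.30 ± 0.087. It was the 1 member of 15 compared that reached 2-fold, the size used as the rule here. Over all 178 mouse miRNA probes compared, 14.6% were at least 2-fold lower, 0.562% at least 2-fold higher and 15.2% either way. The median over the 15 members was 0.018, against -0.11 over all 178 probes. That median says little, because 7 of the 15 never passed in the pool and their ratio is set largely by the background correction. The median value itself belongs to one of them, miR-493-5p. miR-134 and miR-485-3p also lacked a pool signal that passed on both arrays. For miR-433 and miR-495, which did not pass on the control array, a lower limit was set on Hy3 signals scaled between arrays. As tumor over control it was 1.03-fold for miR-433 and 1.02-fold for miR-495. In both dyes on both arrays 6 members passed, of which 1 reached 2-fold, against 26% of the 96 mouse miRNA probes that passed in this way. The other 5 were miR-382 at 0.20, miR-381 at 0.15, miR-370 at 0.14, miR-487b at 0.12 and miR-494 at -0.09. The median over the 6 was 0.13, against -0.35 over the 96 probes, and it holds for the ratio to the pool alone. With the Hy3 channel alone, scaled between arrays, miR-654 was at -1.36, miR-381 at -1.24 and miR-382 at -0.80. In that setting miR-370 was at -0.68, miR-494 at -0.23 and miR-487b at 0.08.

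The lower value of miR-654 depended in part on the scaling. Under 9 of 10 other settings it stayed at 2-fold or more, and with loess fitted on the mouse miRNA probes alone it was -0.86. In that setting miR-494 was at 1.08 in place of -0.09, so that the 1 member at 2-fold was a higher one and not a lower one. There miR-370 was at 0.63 in place of 0.14, miR-381 at 0.66 in place of 0.15 and miR-382 at 0.70 in place of 0.20. The background-corrected signals behind the ratio differed by -1.56 in Hy3 and -0.08 in the pool for miR-654. For miR-381 they differed by -1.44 in Hy3 and -1.48 in the pool, for miR-382 by -0.99 and -1.03, and for miR-370 by -0.87 and -0.83, in log2 units. The pool alone was thus 2-fold lower for 2 of the 6 members, miR-381 and miR-382, against 6.25% of the 96 probes. Over all 15 members compared it was 2-fold lower for 3, against 7 of the 178 probes. These include miR-134 (-1.31), whose pool signal did not pass on the tumor array. With the Hy3 channel alone, scaled between arrays, 2 of 15 members were 2-fold lower, miR-654 at -1.36 and miR-381 at -1.24, against 21.9% of the 178 probes.

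The second comparison asked how non-malignant ICN1 cells differed from control thymocytes. Of 14 members compared, 0 reached 2-fold, against 1.79% lower and 4.17% higher of 168 mouse miRNA probes (5.95% either way). miR-654 again had the lowest value, -0.60 ± 0.033 (1.52-fold), with a ratio of -0.16 on the non-malignant ICN1 array against 0.44 on the control array. Its Hy3 signal differed by -0.24 and its pool signal by 0.47, so most of this difference lay in the pool. miR-134 was at 0.26 ± 0.079 and miR-494 at 0.23 ± 0.018. For miR-485-3p no ratio is given, since its pool signal did not pass on the control array. The median was 0.033 over the 14 members and -0.025 over all 168 probes. Over the 7 members that passed in both dyes on both arrays it was 0.097, with 0 at 2-fold, against -0.18 over 97 such probes, of which 8.25% reached 2-fold.

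The third comparison set malignant against non-malignant cells that both express ICN1. Of 15 members, 0 reached 2-fold, against 9.66% lower and 0.568% higher of 176 mouse miRNA probes (10.2% either way). miR-654 had the lowest value, -0.70 ± 0.082 (1.62-fold), followed by miR-494 at -0.31 ± 0.018. With the Hy3 channel alone miR-381 was at -1.44, miR-654 at -1.22 and miR-134 at -1.12, so 3 of 15 members were 2-fold lower, against 18.8% of the 176 probes. The pool was 2-fold lower for 1 of the 6 members that passed in both dyes on both arrays, miR-381 (-1.56), against 4.35% of 92 such probes. Over all 15 members it was 2-fold lower for 3, against 7 of the 176 probes. These include miR-134 (-1.31) and miR-485-3p (-1.31), whose pool signals did not pass on the tumor array. The median was -0.0059 over the 15 members, again the value of miR-493-5p, and -0.082 over all 176 probes. Over the 6 members it was 0.065, with 0 at 2-fold, against -0.30 over the 92 probes, of which 16.3% reached 2-fold. This too holds for the ratio alone. Beside miR-381 and miR-654, the Hy3 channel alone had miR-370 at -0.85, miR-382 at -0.82, miR-494 at -0.18 and miR-487b at 0.096. Each array enters a pair of these comparisons, so they are not independent of each other.

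Probes for 9 further miRNAs of the locus fell outside the list. miR-136, antisense to Rtl1, passed in Hy3 on all 3 arrays, at 49.2 on the tumor array, 43.6 on the non-malignant ICN1 array and 45.9 on the control array. miR-432* passed on all 3 too, at 22.3 on the tumor array, 30.7 on the non-malignant ICN1 array and 33.3 on the control array. miR-432 (17.8) and miR-487a (22.4) passed on the tumor array alone. The signals at which miR-432*, miR-432 and miR-487a passed all lay below the brightest negative control of the same array. miR-368, miR-412, miR-453, miR-655 and miR-656 passed on none, and none of the 9 passed in the pool.

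Markers fitted the labelled cells in part. The thymocyte miRNAs miR-181a and miR-181b and both arms of miR-142, found in all blood cells, passed on every array. Their Hy3 signals were lowest on the tumor array, with a sum for the thymocyte pair of 159 on the tumor array, 231 on the non-malignant ICN1 array and 409.2 on the control array. For the miR-142 arms the sum was 7456.5 on the tumor array, 16843 on the non-malignant ICN1 array and 21372 on the control array. These sums are not scaled between arrays. The pool signal of miR-142-5p was also lowest on the tumor array, at 3552, against 6141 on the non-malignant ICN1 array and 5576 on the control array. For miR-142-3p, miR-181a and miR-181b the pool signal was highest on the tumor array. The erythroid markers passed 3 of 3 on every array, with a summed Hy3 signal of 642 on the tumor array, 11753 on the non-malignant ICN1 array and 24002 on the control array. Most of it was miR-451, at 505 on the tumor array, 11409 on the non-malignant ICN1 array and 23628 on the control array. The signal of miR-144 was 31.6 on the tumor array, 147 on the non-malignant ICN1 array and 89.1 on the control array. Of the stromal markers 2 of 4 passed, with miR-143 and miR-199a not detected and a sum of 1502 on the tumor array, 1790 on the non-malignant ICN1 array and 2220 on the control array, nearly all of it miR-214. Of the neural markers, from a tissue where this cluster is high, 4 of 6 passed in Hy3 and 0 in the pool, with a sum of 257 on the tumor array, 315 on the non-malignant ICN1 array and 252 on the control array. The higher non-malignant ICN1 sum came from miR-9, at 42.8 on the tumor array, 109.9 on the non-malignant ICN1 array and 37.9 on the control array. The myeloid marker miR-223 passed in both dyes on every array (Hy3 signals of 65.1 on the tumor array, 366 on the non-malignant ICN1 array and 164 on the control array). All 3 epithelial markers passed in Hy3 on every array (sums of 144 on the tumor array, 161 on the non-malignant ICN1 array and 150 on the control array). In the pool 0 of the 3 passed on the tumor array, 0 on the non-malignant ICN1 array and 1 on the control array. In Hy3 miR-200c lay below the brightest negative control on every array. The mature lymphocyte marker miR-150 did not pass on the tumor array (18.7) and passed on the non-malignant ICN1 array (24.8) and the control array (44.4). The part of other cells in the members' signals was not tested.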

How the data were processed

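For each spot and dye the deposited tables give signal mean, background median and background SD as intensity on a linear scale, not normalized, per the file headers. They also hold a quality flag, a score, per the file headers. The image analysis software is not given in the sources used here, and total RNA was made with Trizol, per the labels' protocols. Every array had 6720 spots, up to 4 per member. Flag 3 removed 51 spots from the tumor array, 125 from that of non-malignant ICN1 cells and 72 from the control array, of which 0, 3 and 3 were members' spots, while flags 2 and 4 were kept. Median Hy3 background was 70 on the tumor, 82 on that of non-malignant ICN1 cells and 77 on the control array. Background was corrected by normexp (offset 50) and log2(Hy3/Hy5) was normalized by global loess within each array with limma 3.58.1 in R 4.3.3. Tables were made in Python 3.11.15 (numpy 2.4.6, pandas 2.3.3).

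A probe entered a comparison if detected on 1 of its 2 arrays. Old probe names were read as arms of the mouse hairpins by hand. The deposited table of processed values was not used, since 1 of its 345 row numbers occurs among the probe identifiers. No column was left unassigned (0). On simulated tumor and control arrays of 1491 probes, 60 of 60 changed probes kept their direction, and 384 of 385 unchanged probes stayed within 2-fold. In the simulation as many probes were raised as lowered, and dim probes were left unchanged. Recovery was not tested where most changes go in the same direction, as in tumor against control here. It was also not tested for members with no pool signal, or with spots as uneven as those of miR-654 and miR-381. Members detected on any array were named with their Hy3 values on all 3 arrays, and the others were named with their range. Members and lists were chosen with earlier results of these data known.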

Additional observations from a re-analysis of the deposited data

How the results depend on the processing

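No paired analysis was possible because each group has 1 array, and for the same reason no replicate could be left out. Counting detection in the Hy5 pool gave 6 members on the tumor array, 8 on the non-malignant ICN1 array and 7 on the control array, and requiring both dyes gave the same counts of 6, 8 and 7. With the brightest negative control as the margin 12 members passed on each array, against 112 of 238 other mouse miRNA probes on the tumor array, 121 on that of non-malignant ICN1 cells and 121 on the control array. This margin and both rules of both dyes were chosen after seeing the data. With the Hy3 channel alone, 2 members reached 2-fold in tumor against control (miR-381 at -1.24 and miR-654 at -1.36) and 3 in tumor against non-malignant ICN1, against 21.9% of 178 and 18.8% of 176 probes that were 2-fold lower. Of 111 other values of the counts and medians, 103 stayed close to those reported and 8 moved. Of 440 values of single members 408 stayed close and 32 moved, and miR-654 in tumor against control ranged from -1.59 to -0.86. The members' median, which includes members with no pool signal, changed sign between settings and ran from -0.040 to 0.16 in tumor against control, from -0.033 to 0.10 in non-malignant ICN1 against control and from -0.0093 to 0.12 in tumor against non-malignant ICN1. In tumor against control, loess on the mouse miRNA probes shifted the median of all probes by 0.16 and the Hy3 channel alone by -0.11. With members that passed in both dyes on both arrays the medians were 0.13 in tumor against control, 0.097 in non-malignant ICN1 against control and 0.065 in tumor against non-malignant ICN1. These medians are of the ratio to the pool under the reported setting. In both comparisons of tumor cells, the Hy3 channel alone gave lower values for most of these members. Keeping only members with a mouse gene changed nothing, since all 38 have one. Signals below the brightest negative control, 34.7 on the tumor array, 31.6 on that of non-malignant ICN1 cells and 39.96 on the control array, cannot be ordered.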
